A study of Arabidopsis thaliana with 27 samples.

Results

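The response of the repair mutant xpf-3 to a high UV-B dose was compared with that of wild type Columbia-0 (WT) in etiolated Arabidopsis hypocotyls. For every gene, the difference of responses was the log2 change from dark to 30000 µmol m-2 UV-B in xpf-3 minus the same change in WT. The 12 libraries were chosen by their labelled genotype and dose, 3 libraries in each of 4 groups, out of 27 libraries in the study. Of 32832 loci counted, 19794 passed a filter on low counts and were tested, and 13038 were not.

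The study exposed WT, xpf-3 and the UV-B photoreceptor mutant uvr8-6 to no UV-B, to 3000 or to 30000 µmol m-2. All groups were grown from seed in complete darkness for 2.5 days, with 100 µM gibberellin A4 (GA4) in 0.5× MS medium, and the germinating seeds then received UV-B over about 5 or 45 min or stayed dark. GA4, an active gibberellin, was thus present in the dark controls and in the UV-B groups alike, and all seedlings went back to the dark. Hypocotyls were excised 6 h after exposure according to the extraction protocol, whereas the title of the series gives 2 days. The groups used here were WT dark, WT at 30000 µmol m-2, xpf-3 dark and xpf-3 at 30000 µmol m-2. Below, UV-B without a dose means 30000 µmol m-2. The xpf-3 line was 1 mutant allele, and the labels do not say whether libraries came from separately grown seedlings. All p-values therefore measure the spread among these libraries, which may be technical.

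UV-B joins neighbouring pyrimidines of DNA into dimers and photoproducts. Plants reverse many of these lesions with photolyases, which need light, and remove others by nucleotide excision repair, which works in the dark. In excision repair the XPF protein, encoded in Arabidopsis by UVH1, acts with ERCC1 as the endonuclease that cuts the damaged strand on the 5′ side of the lesion, and XPG, encoded by UVH3, cuts on the other side. Lesions that remain in a transcribed strand stop RNA polymerase II. Etiolated hypocotyls grow by cell elongation, and their plastids have not yet turned into chloroplasts.

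Total counts in the 12 libraries ran from 4508097 (xpf-3 UV-B replicate 1) to 11984665 (WT dark replicate 3). Transcripts of UVH1 (AT5G41150), the mutated gene, stood at 19.2, 19.1 and 19.5 CPM (counts scaled to a common library size) in the WT dark libraries, at 16.6, 16.0 and 14.3 CPM in WT after UV-B, at 47.1, 52.4 and 39.9 CPM in xpf-3 dark and at 34.6, 34.0 and 33.9 CPM in xpf-3 after UV-B. The xpf-3 libraries lay above the WT libraries in both conditions, and the place of these reads within the gene is not known from a count. Its difference of responses was -0.15 ± 0.15 (SE of the fit, as for all log2 values below, adjusted p = 0.593). Genes of ribosomal RNA took 0.00720 to 0.00789% of the counts in WT dark, 0.0166 to 0.0218% in xpf-3 dark, 0.362 to 0.468% in WT after UV-B and 0.304 to 0.406% in xpf-3 after UV-B. Of 3 lists for other organs, none of the 10 root genes tested and none of the 10 seed genes tested passed. The root list, most of whose level was the root glucosidase PYK10, summed to 15080 to 15240 CPM in WT dark, 12140 to 13470 CPM in WT after UV-B, 18990 to 19980 CPM in xpf-3 dark and 17820 to 19770 CPM in xpf-3 after UV-B. With UV-B, 8 of its 10 genes passed as lower in WT (median change -3.43) and 9 in xpf-3 (median change -2.47), unlike the sum. Of its 10 genes 8 had differences of responses above 0 (median 0.54), and the endodermal genes CASP1 to CASP5 were present in all 12 libraries. The part of root tissue in the results was not tested. The seed list summed to 2.90 to 15 CPM in the WT and xpf-3 dark and WT UV-B libraries and to 12.6 to 23.7 CPM in xpf-3 after UV-B. The shoot apex and stomatal list did move, and its values stand beside the results below.

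Of the 19794 genes, 1849 (9.34%) passed the test of the difference of responses (adjusted p under 0.05). Of these, 1032 (5.21%) were higher in xpf-3 and 817 (4.13%) lower. The unadjusted p was under 0.05 in 4955 genes. The median difference over all genes tested was -0.042 on the log2 scale. Genes called higher differed more, with a median of 1.26, than genes called lower, with a median of -0.75, and 729 of the higher against 204 of the lower genes differed at least 2-fold. The response to UV-B was itself large in both genotypes: 12771 genes (64.5%) passed in WT, 33.0% of all genes higher and 31.5% lower, and 14504 (73.3%) in xpf-3, 37.8% higher and 35.5% lower, and the genes below are those on which the genotypes parted.

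The number of calls rested on single libraries. It was 177 (62 higher, 115 lower) without WT dark replicate 1, 236 without WT UV-B replicate 2, 714 without xpf-3 dark replicate 3, and 1042 and 1082 without xpf-3 UV-B replicates 2 and 3. Leaving out any other library gave between 1378 and 2316 calls. In total 135 genes, 55 higher and 80 lower, were called in the same direction whichever of the 12 libraries was left out. No called gene changed its sign in any of these fits. Leave-out counts of single lists below are to be read beside these totals.

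**Figure D1:**
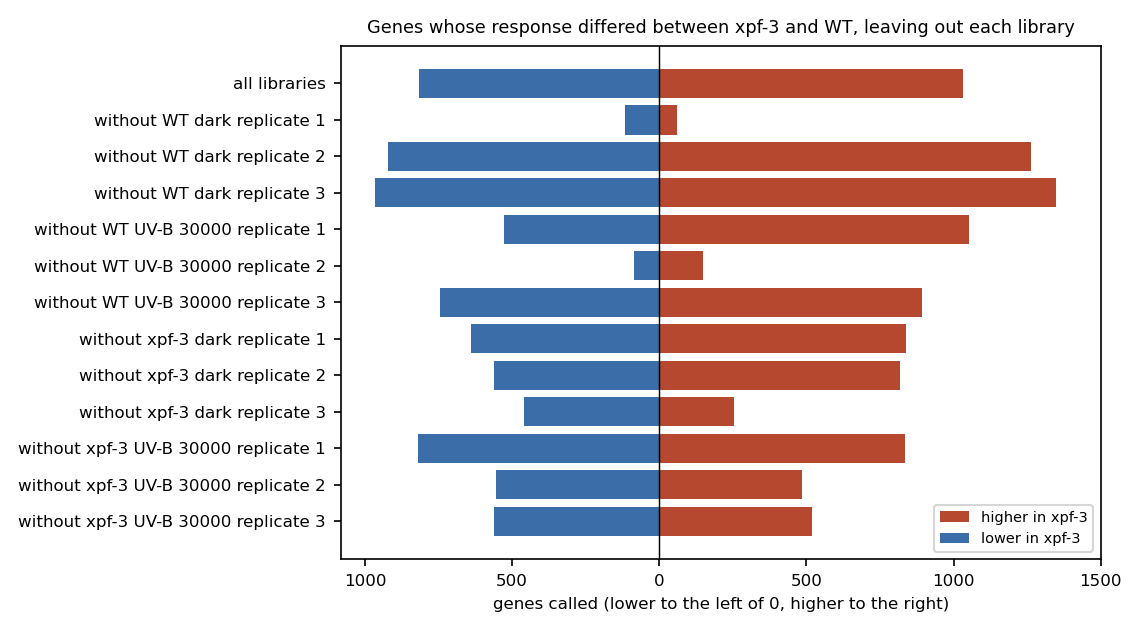
Number of genes whose response to 30000 µmol m-2 UV-B differed between xpf-3 and WT (x axis; bars to the right for higher, to the left for lower in xpf-3), with all libraries and with each of the 12 compared libraries left out (y axis). The bars shrank to 62 higher and 115 lower genes without WT dark replicate 1.

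Genes described as plastid proteins were far more frequent among the higher than among the lower genes. The deposited descriptions of 1009 tested genes contain the word chloroplast, plastid or thylakoid, which is 5.10% of all genes tested. Among the 1032 genes called higher, 328 (31.8%) had such a description, and among the 817 called lower 11 (1.35%) did. This grouping was made after the results were seen and carries no test. Over all 1009 genes, called or not, the median change with UV-B was 0.52 in WT and 1.23 in xpf-3, and the median difference was 0.55, against -0.042 over all genes tested.

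The mean log2 CPM over these 1009 genes was 4.36, 3.94 and 3.94 in WT dark, 4.67, 4.58 and 4.70 in WT after UV-B, 4.01, 4.01 and 3.79 in xpf-3 dark, and 5.02, 5.08 and 5.08 in xpf-3 after UV-B. All xpf-3 libraries lay above all WT libraries after UV-B, and WT dark replicate 1 lay above the other 5 dark libraries. Without that library, 62 of all genes tested were called higher and 115 lower. Of the 1009 genes 14 were called higher and 2 lower, and their median difference was 0.41. Without WT UV-B replicate 2, 41 of the 1009 were higher, beside 149 of all genes. Without xpf-3 dark replicate 3 it was 67, beside 255 of all genes.

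Rubisco is the carbon-fixing enzyme of photosynthesis, and its small subunit is encoded in the nucleus. RBCS2B (AT5G38420), one of these small subunit genes, stood at 178, 72.2 and 33.7 CPM in WT dark, 80.8, 115 and 125 CPM in WT after UV-B, 36.5, 50 and 37.7 CPM in xpf-3 dark, and 567, 834 and 671 CPM in xpf-3 after UV-B. The xpf-3 UV-B libraries lay above all others. The gene rose by 4.06 ± 0.61 in xpf-3 against 0.17 ± 0.55 in WT, a difference of 3.89 ± 0.80 (adjusted p = 0.0118). The call was lost without WT dark replicate 1 (adjusted p = 0.0557). RBCS1B (AT5G38430) differed by 4.87 ± 1.0 (adjusted p = 0.0118, but 0.135 without WT dark replicate 1). RBCS3B (AT5G38410) differed by 2.15 ± 0.42 (adjusted p = 0.00886), and its call held in each leave-out (highest adjusted p = 0.0393). These 3 genes are near-identical neighbours, so the split of reads among them is uncertain.

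**Figure D2:**
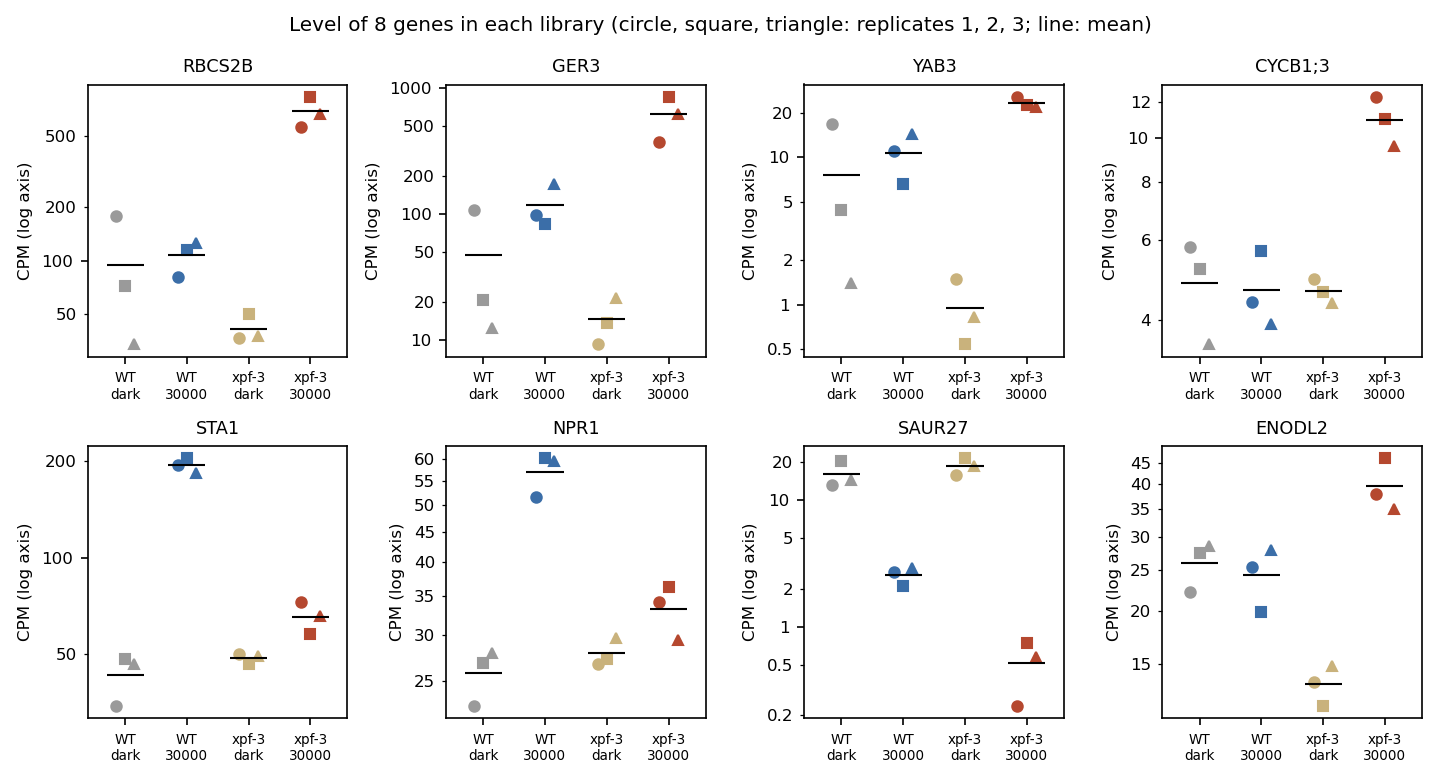
Level in CPM (y axis, log scale, a scale for each panel) of 8 genes in each of the 12 libraries, by group (x axis; 30000 is the UV-B dose in µmol m-2), with the mean of each group as a line. RBCS2B, GER3, YAB3, CYCB1;3 and ENODL2 were highest in the 3 xpf-3 UV-B libraries, STA1 and NPR1 in the 3 WT UV-B libraries, and SAUR27 was lowest in the 3 xpf-3 UV-B libraries.

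The 250 bases before the RefSeq start of RBCS2B are shown because they hold repeats of the I-box, a motif known from light-regulated genes. They lie at chr5:15382072-15382321 on the minus strand of TAIR10.1. Capitals mark the I-box, GATAAG on either strand, at 146, 115 and 94 bases before the start, with no overlap with another motif searched.
RBCS2B: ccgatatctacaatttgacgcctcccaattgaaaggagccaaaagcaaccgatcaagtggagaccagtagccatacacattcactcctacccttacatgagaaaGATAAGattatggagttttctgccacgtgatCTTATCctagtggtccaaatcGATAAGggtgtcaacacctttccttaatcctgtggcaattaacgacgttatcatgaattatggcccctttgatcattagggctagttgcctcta
An I-box stood in 12.2% of the 19719 promoter windows of tested genes, in 15.3% of those called higher and in 12.4% of those called lower. Of 36 light harvesting and photosystem genes, 10 (27.8%) had one. So did 9 of 40 genes of auxin response and transport (22.5%) and 5 of 24 genes of mitosis and cytokinesis (20.8%).

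The 10 largest increases also held genes other than those of Rubisco. GER3 (AT5G20630), a germin-like protein gene, stood at 108, 20.8 and 12.6 CPM in WT dark, 98.0, 82.9 and 174 CPM in WT after UV-B, 9.30, 13.7 and 21.7 CPM in xpf-3 dark, and 374, 849 and 624 CPM in xpf-3 after UV-B. The difference of responses was 4.06 ± 0.96 (adjusted p = 0.0181). WT dark replicate 1 lay far above the other WT dark libraries, and without it the adjusted p was 0.118. BCA2 (AT5G14740), a beta carbonic anhydrase, differed by 3.81 ± 1.01 (adjusted p = 0.0255, highest without WT dark replicate 1 at 0.212), and OEP6 (AT3G63160), an outer plastid envelope protein, by 3.57 ± 0.87 (adjusted p = 0.0195, highest without WT dark replicate 1 at 0.157). GER3, BCA2 and OEP6 were also not called without WT UV-B replicate 2, and BCA2 not without xpf-3 dark replicate 1.

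YAB3 (AT4G00180), a YABBY transcription factor of the lower leaf side, stood at 17.0, 4.42 and 1.41 CPM in WT dark, 11.1, 6.62 and 14.4 CPM in WT after UV-B, 1.5, 0.536 and 0.827 CPM in xpf-3 dark, and 25.8, 22.6 and 21.9 CPM in xpf-3 after UV-B. The xpf-3 UV-B libraries were the highest and the xpf-3 dark libraries among the lowest. The difference was 4.11 ± 0.89 (adjusted p = 0.0134, and 0.0742 without WT dark replicate 1). TCP2 (AT4G18390), a transcription factor of leaf growth, differed by 3.92 ± 1.08 (adjusted p = 0.0285, and 0.342 without WT dark replicate 1).

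AT5G16030 had 2 counts over the xpf-3 dark libraries and 336 after UV-B, 236 times higher in CPM (95% counting interval 64.8 to 1956). Its difference of responses of 7.08 ± 1.66 (adjusted p = 0.0169, and 0.254 without WT dark replicate 1) depends on the prior count, since so few reads stood in the dark. AT4G36850 differed by 3.80 ± 1.01 (adjusted p = 0.0252) and AT4G21445 by 3.51 ± 0.94 (adjusted p = 0.0253). Without WT dark replicate 1 their adjusted p was 0.579 and 0.215.

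Of 12 tested genes of the shoot apex and stomatal lineage, 2 were higher and 0 lower, and the median difference was 2.11. Both are factors of early stomatal development. TMM (AT1G80080), a receptor-like protein, had 5.94, 1.77 and 2.12 CPM in WT dark, 3.22, 1.45 and 2.89 CPM in WT after UV-B, 1.5, 1.39 and 0.709 CPM in xpf-3 dark and 5.68, 7.26 and 5.73 CPM in xpf-3 after UV-B (difference 2.75 ± 0.58, adjusted p = 0.0115, and 0.0587 without WT dark replicate 1). SPCH (AT5G53210), the transcription factor that starts the lineage, had 3 counts in xpf-3 dark and 46 after UV-B, 21.5 times higher (95% counting interval 6.92 to 108). Its WT and xpf-3 libraries overlapped after UV-B, and its difference of 3.87 ± 1.2 (adjusted p = 0.0441) had an adjusted p of 0.404 without WT dark replicate 1.

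The mean log2 CPM over the shoot apex and stomatal list was 0.83, -0.49 and -0.28 in WT dark, 0.24, 0.09 and 0.99 in WT after UV-B, -0.25, -0.49 and -0.86 in xpf-3 dark, and 1.16, 1.37 and 1.09 in xpf-3 after UV-B. It was thus highest in the xpf-3 UV-B libraries, and WT dark replicate 1 lay above the other dark libraries, as with the plastid genes. WT UV-B replicate 3 (0.99) also lay above WT dark replicate 1 (0.83). For the plastid genes all WT UV-B libraries lay above WT dark replicate 1. WUS, which defines the stem cell centre of the apex, was at 0 in 10 of the 12 libraries and at most 0.116 CPM, and KNAT1, which stems also express, had lower levels in the xpf-3 UV-B libraries (88.2 to 94.4 CPM) than in the others, with a difference of responses of -0.42 ± 0.16 (adjusted p = 0.0989). Without WT dark replicate 1, no gene of the list passed and its median difference was 0.81. The part of shoot apex or leaf tissue in the results for plastid genes, YAB3 and TCP2 was not tested. In bulk tissue, more cells of a type and more RNA per cell cannot be told apart.

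**Figure D3:**
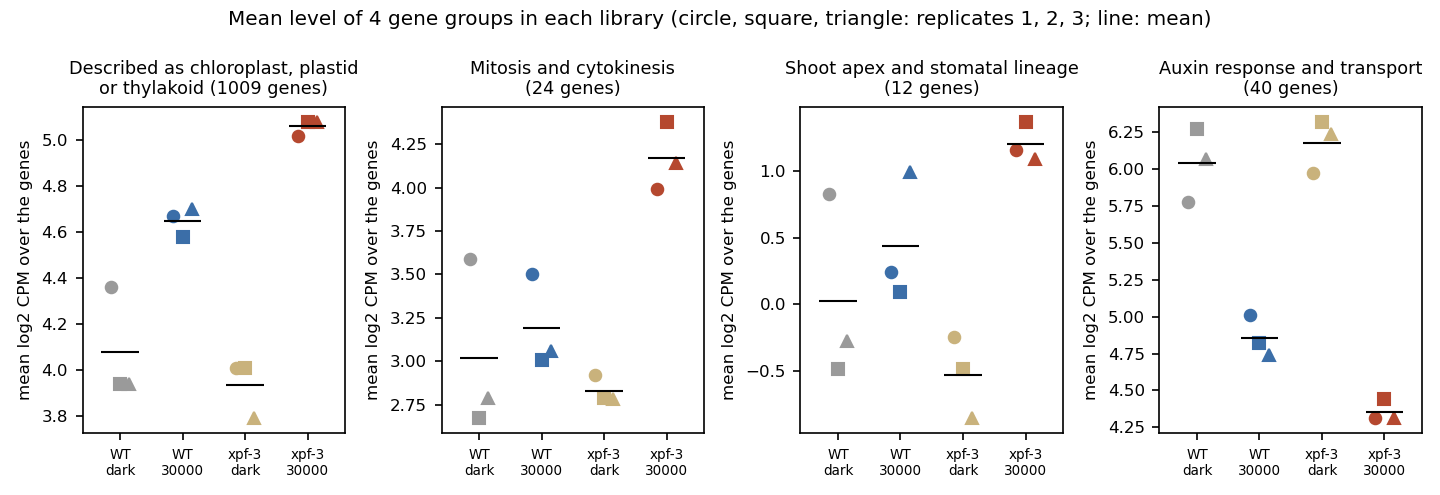
Mean log2 CPM (y axis, a scale for each panel) over 4 gene groups in each of the 12 libraries, by group (x axis; 30000 is the UV-B dose in µmol m-2), with the mean of each group as a line. The plastid, mitosis and shoot apex groups were highest in the 3 xpf-3 UV-B libraries, where the auxin group was lowest, and WT dark replicate 1 lay above the other dark libraries in these 3 groups.

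Of 36 tested genes for light harvesting, photosystems and chlorophyll synthesis, 7 were higher and 0 lower, and the median difference was 0.82, from a median change of 1.24 in WT and 2.21 in xpf-3. Their summed level was 4443, 3416 and 3366 CPM in WT dark, 8260, 8200 and 7912 CPM in WT after UV-B, 3311, 4399 and 2581 CPM in xpf-3 dark, and 13380, 20430 and 17220 CPM in xpf-3 after UV-B. The xpf-3 UV-B libraries thus lay above all WT libraries, and both genotypes lay above their dark libraries. CHLI1 (AT4G18480), a subunit of the Mg-chelatase of chlorophyll synthesis, differed by 1.36 ± 0.34 (adjusted p = 0.0207, and 0.0957 without WT dark replicate 1). With that library left out only 1 gene of the list passed, although the median stayed at 0.82, and 3 passed without WT UV-B replicate 2 or without xpf-3 dark replicate 3. The genes of protochlorophyllide reductase, which needs light to make chlorophyll and is typical of etiolated tissue, were higher too. PORA (AT5G54190) differed by 2.94 ± 0.73 (adjusted p = 0.0206, and 0.111 without WT dark replicate 1) and PORB (AT4G27440) by 1.31 ± 0.34 (adjusted p = 0.0221, and 0.101 without WT dark replicate 1).

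Plastid genes were also among the 55 genes that were higher in every leave-out, where 13 had such a description. The following were chosen from these after their values were seen. PTAC14 (AT4G20130), of the plastid transcription complex, differed by 2.05 ± 0.42 (adjusted p = 0.0115, at most 0.0409 in the leave-outs). PSY (AT5G17230), phytoene synthase, the entry enzyme of carotenoid synthesis, had 47.4, 24.4 and 29.2 CPM in WT dark, 35.5, 25.7 and 33.4 CPM in WT after UV-B, 27.9, 28.7 and 20.4 CPM in xpf-3 dark and 63.0, 77.0 and 62.4 CPM in xpf-3 after UV-B. Its xpf-3 UV-B libraries lay above all others, and the difference was 1.49 ± 0.29 (adjusted p = 0.00869). HEMC (AT5G08280), an enzyme of the tetrapyrrole pathway to chlorophyll and haem, differed by 1.31 ± 0.28 (adjusted p = 0.0118), and HSP70-7 (AT5G49910), a chaperone of the plastid stroma, by 1.27 ± 0.25 (adjusted p = 0.00784).

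The 6 higher genes of smallest p held their calls in every leave-out. ENODL2 (AT4G27520), an early nodulin-like protein gene, stood at 22.2, 27.5 and 28.5 CPM in WT dark, 25.4, 19.9 and 27.9 CPM in WT after UV-B, 13.6, 11.9 and 14.8 CPM in xpf-3 dark, and 37.9, 46.1 and 34.9 CPM in xpf-3 after UV-B. The dark xpf-3 libraries lay below and the UV-B xpf-3 libraries above all WT libraries, so that the difference of 1.66 ± 0.21 (adjusted p = 0.000501) held a gap in the dark as well. BGLU25 (AT3G03640), described as an inactive beta-glucosidase, differed by 1.86 ± 0.26 (adjusted p = 0.00114). AT4G30650, a small membrane protein gene, fell in WT by 1.82 on the log2 scale and had a change of 0.34 ± 0.22 in xpf-3, a difference of 2.16 ± 0.32 (adjusted p = 0.00215). PNSB4 (AT1G18730), a subunit of the plastid NADH dehydrogenase-like complex, differed by 2.79 ± 0.47 (adjusted p = 0.00459), EMB3147 (AT2G30200) by 0.66 ± 0.11 (adjusted p = 0.00465) and iqd8 (AT1G72670), of a family of calmodulin-binding proteins, by 2.91 ± 0.50 (adjusted p = 0.00489).

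The genes that run mitosis and cytokinesis were the list with the most calls. Of 24 tested, 15 were higher and 0 lower, against 5.21% and 4.13% of all genes tested, and the other 9 also had differences above 0. The median change was 0.06 in WT and 1.32 in xpf-3, and the median difference 1.32. The summed level was 345, 172 and 195 CPM in WT dark, 334, 231 and 241 CPM in WT after UV-B, 224, 197 and 190 CPM in xpf-3 dark, and 445, 597 and 506 CPM in xpf-3 after UV-B. The xpf-3 UV-B libraries were the highest, and WT dark replicate 1 lay above the other dark libraries. Without WT dark replicate 1, none of the 24 passed and the median difference was 0.90. With WT UV-B replicate 2 left out 2 passed, and with xpf-3 dark replicate 3 left out 4 passed. Over all genes tested, these fits had 62, 149 and 255 higher calls. Like the shoot apex and stomatal list, this list was highest in xpf-3 after UV-B, with WT dark replicate 1 above the other dark libraries. Among the WT UV-B libraries the 2 lists differed in mean log2 CPM. Replicate 1 was highest for mitosis (3.5, 3.01 and 3.06) and replicate 3 for the shoot apex list (0.24, 0.09 and 0.99). The part of the shoot apex list in the mitosis list was not tested.

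CYCB1;3 (AT3G11520), a B-type cyclin that drives entry into mitosis, stood at 5.77, 5.17 and 3.54 CPM in WT dark, 4.38, 5.66 and 3.93 CPM in WT after UV-B, 4.92, 4.61 and 4.37 CPM in xpf-3 dark, and 12.3, 11 and 9.6 CPM in xpf-3 after UV-B. All xpf-3 UV-B libraries lay above all others, which overlapped with each other. The difference was 1.29 ± 0.30 (adjusted p = 0.0162, and 0.0749 without WT dark replicate 1). CYCB2;4 (AT1G76310), another B-type cyclin, differed by 1.78 ± 0.38 (adjusted p = 0.0118, and 0.0576 without WT dark replicate 1). CDKB2;1 (AT1G76540), a mitotic kinase, differed by 1.38 ± 0.32 (adjusted p = 0.0154, and 0.0686 without WT dark replicate 1), and CYCB2;3 (AT1G20610) by 1.47 ± 0.38 (adjusted p = 0.021, and 0.091 without WT dark replicate 1). CYCB1;1 (AT4G37490), named outside the ranking because it is also known to rise with DNA damage, rose in both genotypes, by 1.5 ± 0.20 in WT and 2.50 ± 0.21 in xpf-3 (difference 1.0 ± 0.29, adjusted p = 0.034, and 0.243 without WT dark replicate 1). The cell cycle inhibitor SIM (AT5G04470) fell by 1.53 in WT and by 2.19 in xpf-3 on the log2 scale (difference -0.65 ± 0.20, adjusted p = 0.0418, and 0.165 without WT UV-B replicate 1). Its xpf-3 and WT libraries overlapped after UV-B.

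The 250 bases before the RefSeq start of CYCB1;3 are shown because genes of mitosis carry the MSA element, the site of 3-repeat MYB factors. They lie at chr3:3627274-3627523 on the minus strand of TAIR10.1. Capitals mark its core, AACGG on either strand, at 64, 39 and 5 bases before the start; the last of these overlaps a W-box by 2 letters.
CYCB1;3: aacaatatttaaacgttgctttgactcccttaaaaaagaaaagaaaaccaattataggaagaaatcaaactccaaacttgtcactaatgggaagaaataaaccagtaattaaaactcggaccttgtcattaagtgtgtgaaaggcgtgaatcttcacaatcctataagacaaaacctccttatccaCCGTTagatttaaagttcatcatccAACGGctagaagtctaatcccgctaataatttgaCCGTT
The core stood in 21.8% of the promoter windows of all tested genes, in 26.7% of those called higher and in 21.2% of those called lower. It stood in 15 of the 24 mitosis genes (62.5%), in 15 of 40 genes of auxin response and transport (37.5%) and in 4 of 36 light harvesting and photosystem genes (11.1%).

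DNA replication genes gave another picture. Of 21 tested, 1 was higher and 0 lower. The gene was CDC6 (AT2G29680), a loader of the replicative helicase, with a difference of 0.70 ± 0.22 (adjusted p = 0.0481, and 0.127 without WT dark replicate 1). The median change of the list was 0.76 in WT and 0.85 in xpf-3, with 16 genes higher in each genotype, and the median difference was 0.18.

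Of the 31 lists, that of auxin had the most genes called lower. Auxin, brassinosteroid and gibberellin are hormones that promote cell elongation in the dark. Of 40 tested genes of auxin response and transport, 0 were higher and 10 lower, with a median change of -0.99 in WT and -1.65 in xpf-3 and a median difference of -0.62. The mean log2 CPM of the list had the reverse pattern of the plastid genes, lowest in xpf-3 after UV-B. None of the 40 passed without WT dark replicate 1 (median -0.48), 1 without WT UV-B replicate 2 (median -0.49), and 3 without xpf-3 dark replicate 3 (median -0.66). Over all genes tested, these fits had 115, 87 and 459 lower calls.

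SAUR27 (AT3G03840) belongs to the small auxin up-regulated RNA family, whose members promote expansion. It stood at 13.2, 20.3 and 14.4 CPM in WT dark, 2.70, 2.1 and 2.89 CPM in WT after UV-B, 15.9, 21.4 and 18.7 CPM in xpf-3 dark, and 0.237, 0.738 and 0.573 CPM in xpf-3 after UV-B. The dark groups overlapped and the UV-B groups did not. The gene fell by 2.61 in WT and by 5.02 in xpf-3 on the log2 scale, a difference of -2.41 ± 0.54 (adjusted p = 0.014) that was called in every leave-out (highest adjusted p = 0.0493). SAUR62 (AT1G29430) differed by -2.49 ± 0.77 (adjusted p = 0.0438, and 0.12 without WT dark replicate 1) and SAUR24 (AT5G18080) by -1.81 ± 0.48 (adjusted p = 0.0233, and 0.0839 without WT dark replicate 1). SAUR genes stand in clusters of close copies, so their shared reads are uncertain.

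Repressors of auxin response were lower too. IAA6 (AT1G52830) had 53.2, 84.8 and 75.7 CPM in WT dark, 6.57, 4.52 and 7.28 CPM in WT after UV-B, 67.0, 113 and 86.7 CPM in xpf-3 dark, and 0.947, 2.58 and 1.15 CPM in xpf-3 after UV-B (difference -2.20 ± 0.68, adjusted p = 0.046, and 0.141 without WT dark replicate 1). IAA2 (AT3G23030) differed by -0.96 ± 0.21 (adjusted p = 0.0126, and 0.0517 without WT dark replicate 1), IAA5 (AT1G15580) by -1.14 ± 0.30 (adjusted p = 0.0221, and 0.0877 without WT dark replicate 1), and the activator ARF7 (AT5G20730) by -0.74 ± 0.20 (adjusted p = 0.0258, and 0.103 without WT UV-B replicate 2). In all 4 genes the xpf-3 UV-B libraries lay below the WT UV-B libraries, while the dark groups overlapped.

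Of 20 brassinosteroid genes, 0 were higher and 3 lower, with a median difference of -0.72. BRI1 (AT4G39400), the brassinosteroid receptor, had 324, 452 and 431 CPM in WT dark, 212, 201 and 176 CPM in WT after UV-B, 448, 480 and 469 CPM in xpf-3 dark, and 131, 128 and 121 CPM in xpf-3 after UV-B. It fell in both genotypes, and further in xpf-3 (difference -0.84 ± 0.20, adjusted p = 0.0158, and 0.062 without WT dark replicate 1). PRE6 (AT1G26945), a growth-promoting factor, differed by -1.5 ± 0.39 (adjusted p = 0.0232, and 0.0738 without WT dark replicate 1), and BEE1 (AT1G18400), a factor induced by the hormone, by -1.03 ± 0.30 (adjusted p = 0.0362, and 0.122 without WT dark replicate 1). None of the 3 was called without WT dark replicate 1 or without WT UV-B replicate 2.

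Of 12 expansins, which loosen the cell wall, 0 were higher and 1 lower, and all 12 had differences below 0 (median -0.61). EXPA1 (AT1G69530) had 50.3, 83.9 and 92.7 CPM in WT dark, 72, 63.7 and 49.9 CPM in WT after UV-B, 81.3, 83.4 and 84.9 CPM in xpf-3 dark, and 27.7, 19.2 and 26.6 CPM in xpf-3 after UV-B. It fell in xpf-3, and its change in WT did not pass, a difference of -1.49 ± 0.29 (adjusted p = 0.00784) that was called in every leave-out. Of 11 genes of primary wall cellulose synthesis none passed, and all 11 had differences below 0 (median -0.37). Of 19 xyloglucan enzyme genes 1 was higher, XTH9 (AT4G03210), which is expressed in growing shoot tips, with a difference of 2.09 ± 0.54 (adjusted p = 0.023, and 0.109 without WT dark replicate 1), and 0 were lower (median -0.38). None of 21 gibberellin genes passed (median -0.19); all groups had grown on GA4.

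The calls of other hormone and light lists stand beside 9.34% of all genes tested. The phytochromes PHYB (AT2G18790, -0.78 ± 0.19, adjusted p = 0.0172, and 0.0722 without WT dark replicate 1) and PHYA (AT1G09570, -0.53 ± 0.17, adjusted p = 0.0447, and 0.168 without WT UV-B replicate 2), which sense red and far-red light, had lower responses in xpf-3. In both genes the xpf-3 dark libraries lay above the WT dark libraries, so the difference held a gap in the dark. After UV-B the PHYA libraries overlapped (870, 892 and 846 CPM in WT, 736, 866 and 678 CPM in xpf-3). PHYB, PHYA, PORA and PORB were the 4 calls among 14 genes of phytochrome-interacting factors and dark growth (median -0.05). Of 23 ethylene genes 0 were higher and 1 lower, EBF2 (AT5G25350), which limits ethylene signalling (-0.63 ± 0.20, adjusted p = 0.0441, and 0.152 without WT UV-B replicate 2). The median of the ethylene list was -0.57. No gene passed among 18 jasmonate genes (median 0.05) and 15 genes of abscisic acid and dehydration (median -0.47).

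Genes described as kinases were more frequent among the lower than among the higher genes. The descriptions of 959 tested genes contain the word kinase, 4.84% of all. Among the genes called lower, 84 (10.3%) did, and among those called higher 29 (2.81%). The median difference of the 959 genes was -0.19, and it lay between -0.23 and -0.11 in the leave-outs. Without WT dark replicate 1, 0 of the 959 were higher and 8 lower, beside 62 and 115 of all genes tested. Without WT UV-B replicate 2, 1 was higher and 8 lower, beside 149 and 87 of all genes tested. This grouping was made after the results were seen.

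PEPR1 (AT1G73080), the receptor of the Pep peptides that signal cell damage, stood at 66.2, 76.1 and 78.3 CPM in WT dark, 151, 192 and 189 CPM in WT after UV-B, 75.8, 78.5 and 77.8 CPM in xpf-3 dark, and 81.9, 87.4 and 95.8 CPM in xpf-3 after UV-B. It rose in WT by 1.27 ± 0.11, while the change in xpf-3 was 0.19 ± 0.11. The xpf-3 UV-B libraries lay between the dark libraries and the WT UV-B libraries, and the difference of -1.08 ± 0.16 (adjusted p = 0.00142) was called in every leave-out. The 250 bases before its RefSeq start are shown because they hold the W-box, the site of WRKY factors of the immune response. They lie at chr1:27483990-27484239 on the plus strand of TAIR10.1. Capitals mark the W-box, TTGACC or TTGACT on either strand, at 192 and 110 bases before the start, with no overlap with another motif searched.
PEPR1: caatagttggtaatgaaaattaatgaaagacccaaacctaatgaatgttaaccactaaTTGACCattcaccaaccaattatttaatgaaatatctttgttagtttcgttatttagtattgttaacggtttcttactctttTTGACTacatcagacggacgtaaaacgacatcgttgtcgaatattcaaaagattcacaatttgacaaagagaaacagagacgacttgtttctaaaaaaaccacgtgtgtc
A W-box stood in 28.5% of the windows of all tested genes, in 35.4% of those called lower and in 21.6% of those called higher.

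NPR1 (AT1G64280), the salicylic acid receptor and coactivator, stood at 22.7, 26.9 and 27.9 CPM in WT dark, 51.6, 60.1 and 59.4 CPM in WT after UV-B, 26.8, 27.3 and 29.7 CPM in xpf-3 dark, and 34.1, 36.2 and 29.4 CPM in xpf-3 after UV-B. The UV-B groups did not overlap. It rose by 1.14 ± 0.12 in WT against a change of 0.25 ± 0.12 in xpf-3, a difference of -0.89 ± 0.17 (adjusted p = 0.00693) called in every leave-out (highest adjusted p = 0.0409). The other 14 tested genes of salicylic acid and pipecolate immunity did not pass. The list rose by a median of 1.86 in WT and 2.53 in xpf-3, and its median difference was 0.01. Among the 80 genes lower in every leave-out, chosen after their values were seen, PSKR1 (AT2G02220), the phytosulfokine receptor, differed by -1.51 ± 0.25 (adjusted p = 0.00413), the calcium-dependent kinase CPK32 (AT3G57530) by -1.22 ± 0.20 (adjusted p = 0.00383) and ADR1-L2 (AT5G04720), a helper of immune receptors, by -0.99 ± 0.19 (adjusted p = 0.00689). In each, the WT UV-B libraries lay above the xpf-3 UV-B libraries.

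Some of the largest decreases were in genes of low dark level. WAKL2 (AT1G16130), a wall-associated kinase, had 0.334, 0.505 and 0.973 CPM in WT dark, 22.9, 34.1 and 31.7 CPM in WT after UV-B, 0.641, 0.643 and 0.591 CPM in xpf-3 dark, and 5.68, 8.49 and 5.59 CPM in xpf-3 after UV-B. It rose in both genotypes, less in xpf-3 (difference -2.18 ± 0.54, adjusted p = 0.019, and 0.0846 without WT dark replicate 1). PER4 (AT1G14540), a secreted peroxidase, rose by 5.29 ± 0.50 in WT and 2.33 ± 0.45 in xpf-3 (difference -2.96 ± 0.74, adjusted p = 0.0195, and 0.0656 without WT dark replicate 1). BAP1 (AT3G61190), an inhibitor of programmed cell death, rose by 2.58 ± 0.43 in WT, against a change of 0.23 ± 0.42 in xpf-3 (difference -2.35 ± 0.60, adjusted p = 0.0207, and 0.0839 without WT dark replicate 1). PER4 had 0.502, 0.379 and 0.265 CPM in WT dark and 0.748, 1.29 and 1.77 CPM in xpf-3 dark. BAP1 had 0.669, 1.14 and 0.796 CPM in WT dark and 2.25, 2.68 and 1.89 CPM in xpf-3 dark. In both genes xpf-3 lay above WT in the dark and below WT after UV-B, so the difference held a gap in the dark as well. WAKL2, PER4 and BAP1 also lost the call without WT UV-B replicate 2. AT2G39980, described without a function, rose in WT from 5.94, 11.7 and 6.54 to 32.7, 38.5 and 28.1 CPM. In xpf-3 it had 5.88, 7.18 and 8.27 CPM in the dark and 7.34, 6.15 and 5.30 CPM after UV-B, a difference of -2.26 ± 0.41 (adjusted p = 0.00599) called in every leave-out. ATMYBL2 (AT1G71030), a repressor of flavonoid genes, fell in both genotypes and further in xpf-3 (difference -2.57 ± 0.75, adjusted p = 0.0346, and 0.11 without WT dark replicate 1). AT2G04680 differed by -2.33 ± 0.62 (adjusted p = 0.024, and 0.0811 without WT UV-B replicate 2) and FUT4 (AT2G15390), a fucosyltransferase, by -2.20 ± 0.68 (adjusted p = 0.0429, and 0.136 without xpf-3 dark replicate 3).

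The calls of 4 further immune and cell death lists were all lower, beside 4.13% of all genes tested. Of 12 cysteine-rich receptor-like kinases 0 were higher and 2 lower, with a median change of 7.99 in WT and 6.68 in xpf-3. Their median difference was -0.76, or -0.88 with groups at 0 set to 3 counts. Since 6 of the 12 had a group at 0, the size of both median changes depends on the prior count. CRK10 (AT4G23180) had 14.9, 25.2 and 24.9 CPM in WT dark, 90.0, 108 and 128 CPM in WT after UV-B, 23.2, 22.4 and 21.3 CPM in xpf-3 dark, and 50.4, 49.7 and 47.6 CPM in xpf-3 after UV-B (difference -1.19 ± 0.29, adjusted p = 0.019, and 0.076 without WT dark replicate 1). Of 22 WRKY factors 0 were higher and 1 lower, WRKY11 (AT4G31550, -0.91 ± 0.25, adjusted p = 0.0275, and 0.11 without WT dark replicate 1). Of 13 camalexin and indole genes 0 were higher and 2 lower, PEN2 (AT2G44490, -0.71 ± 0.19, adjusted p = 0.0228, and 0.0928 without WT dark replicate 1), an enzyme of indole glucosinolate breakdown, and PEN3 (AT1G59870, -0.93 ± 0.29, adjusted p = 0.0471, and 0.167 without WT dark replicate 1), a transporter. Of 11 genes of cell death and autophagy 0 were higher and 3 lower. They were NUDT7 (AT4G12720, -0.96 ± 0.24, adjusted p = 0.0195, and 0.0812 without WT UV-B replicate 2), a Nudix hydrolase that restrains defence, and the NADPH oxidases RBOHF (AT1G64060, -0.78 ± 0.24, adjusted p = 0.0409, and 0.141 without WT dark replicate 1) and RBOHD (AT5G47910, -0.73 ± 0.22, adjusted p = 0.041, and 0.135 without WT UV-B replicate 2). CRK19 (AT4G23270, -0.86 ± 0.26, adjusted p = 0.0395, and 0.142 without WT dark replicate 1) was the other kinase of its list.

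**Figure D4:**
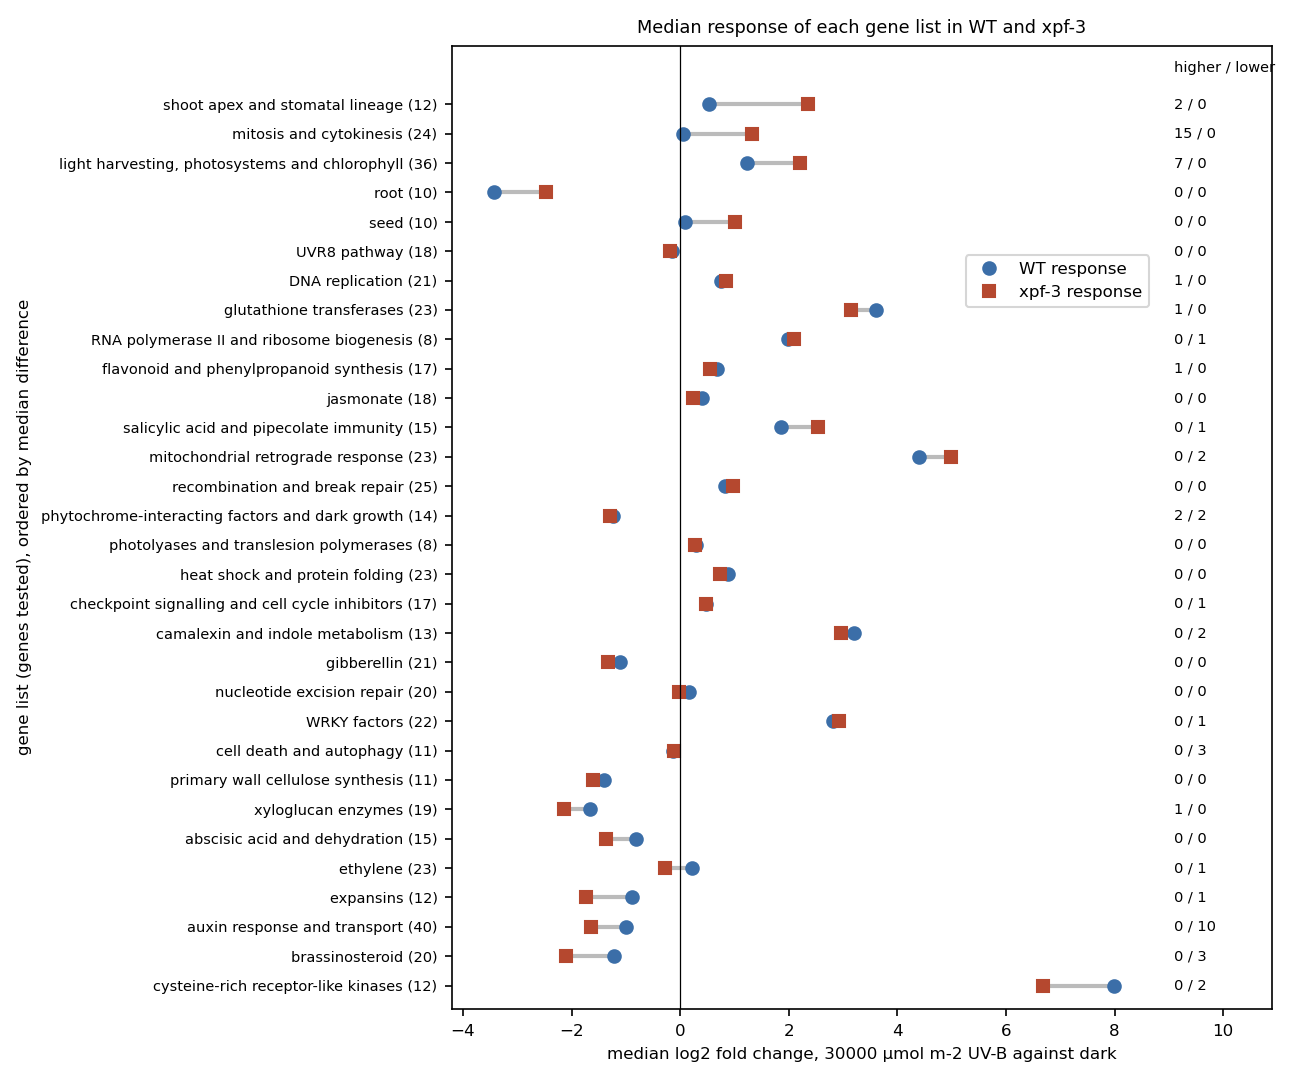
Median log2 change from dark to 30000 µmol m-2 UV-B (x axis) of each of 31 gene lists (y axis, with the number of genes tested) in WT (circles) and xpf-3 (squares), with the number of genes called higher and lower in xpf-3 at the right. The mitosis list had 15 higher and the auxin list 10 lower genes, and the recombination, excision repair and UVR8 lists had none.

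The gene of smallest p was STA1. This gene (AT4G03430) encodes a splicing factor of the U5 particle that stress-treated plants need. It stood at 34.4, 48.2 and 46.4 CPM in WT dark, 195, 204 and 184 CPM in WT after UV-B, 50, 46.6 and 49.2 CPM in xpf-3 dark, and 72.4, 57.5 and 65.6 CPM in xpf-3 after UV-B. The WT UV-B libraries lay far above all others, and xpf-3 rose little. The gene rose by 2.18 ± 0.15 in WT and by 0.42 ± 0.15 in xpf-3, with a difference of -1.76 ± 0.21 (adjusted p = 0.000385, at most 0.00191 in the leave-outs).

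NRPB1 (AT4G35800), the largest subunit of RNA polymerase II, stood at 131, 165 and 167 CPM in WT dark, 289, 331 and 291 CPM in WT after UV-B, 179, 164 and 169 CPM in xpf-3 dark, and 178, 143 and 156 CPM in xpf-3 after UV-B. It rose in WT by 0.98 ± 0.13 and had a change of -0.10 ± 0.13 in xpf-3. The difference of -1.08 ± 0.18 (adjusted p = 0.00459) was called in every leave-out. The other 7 genes of RNA polymerase II and ribosome biogenesis did not pass, and 6 of the 8 genes had differences above 0 (median 0.08). SOV (AT1G77680), a relative of RNA exonucleases described as inactive, had 45.6, 46.4 and 51.5 CPM in WT dark, 53.5, 60.1 and 63.5 CPM in WT after UV-B, 57.8, 53.9 and 52.7 CPM in xpf-3 dark, and 36.7, 30.5 and 26.6 CPM in xpf-3 after UV-B. It rose in WT and fell in xpf-3 (difference -1.12 ± 0.17, adjusted p = 0.00223).

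The other lower genes of smallest p were SD25 (AT4G32300), a lectin receptor kinase (-1.59 ± 0.21, adjusted p = 0.000566), AT4G24200 (-1.11 ± 0.15, adjusted p = 0.000643) and AT4G02940, an oxidoreductase (-1.16 ± 0.17, adjusted p = 0.00173). All 3 fell in xpf-3 and were called in every leave-out. BCA3 (AT1G23730), a beta carbonic anhydrase chosen after its values were seen, had 13 counts in WT dark, 24 in WT after UV-B, 21 in xpf-3 dark and 0 in all 3 xpf-3 UV-B libraries. It was at least 4.99-fold lower after UV-B in xpf-3, with a floor of 3 counts over the group, and the difference passed (adjusted p = 0.0136).

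The lists of DNA damage and its repair are short. With 9.34% called over all genes tested, a low count of calls in them does not set these genes apart. Of 25 genes of recombination and break repair, 0 passed in either direction, with a median change of 0.82 in WT and 0.97 in xpf-3 and a median difference of -0.04. Of 20 nucleotide excision repair genes, UVH1 included, 0 passed (median -0.24). Of 8 photolyases and translesion polymerases, 0 passed (median -0.06), and of 17 genes of checkpoint signalling and cell cycle inhibitors, SIM was the one that did (median -0.18). Under DESeq2 the excision repair list had 1 lower gene and the recombination list none. The following genes were chosen for their known roles after the values were seen.

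BRCA1 (AT4G21070), a homologous recombination factor, stood at 7.44, 7.44 and 10.6 CPM in WT dark, 67.2, 66.1 and 52.2 CPM in WT after UV-B, 10, 6.32 and 7.21 CPM in xpf-3 dark, and 38.8, 33.1 and 37.2 CPM in xpf-3 after UV-B. It rose in both genotypes, and the UV-B groups did not overlap, with xpf-3 below WT. The difference of -0.65 (95% interval -1.17 to -0.13) missed the threshold (adjusted p = 0.101), and lay between 0.034 and 0.31 in the leave-outs. The checkpoint factor NAC044 (AT3G01600) differed by 0.40 (95% interval -0.83 to 1.63) and the cell cycle inhibitor SMR7 (AT3G27630) by -0.42 (95% interval -1.83 to 0.98). The intervals of NAC044 and SMR7 leave room for differences of 2-fold or more, so a p above the threshold does not show equal responses.

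ERCC1 (AT3G05210), the partner of XPF, stood at 16.5, 16.7 and 17.9 CPM in WT dark, 21.3, 21.5 and 25.1 CPM in WT after UV-B, 15.4, 17.5 and 15.4 CPM in xpf-3 dark, and 22.5, 23.0 and 19.8 CPM in xpf-3 after UV-B. The groups of the same treatment overlapped, and the difference was 0.02 (95% interval -0.36 to 0.41). UVH3 (AT3G28030), which encodes XPG, differed by 0.07 (95% interval -0.43 to 0.57). UVH6 (AT1G03190), a helicase of excision repair, differed by -0.38 (95% interval -0.84 to 0.08) and PHR1 (AT1G12370), the photolyase of pyrimidine dimers, by 0.51 (95% interval -0.67 to 1.68).

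The UVR8 pathway, which senses UV-B itself, and the stress lists are also short. Beside 9.34% called over all genes tested, their low counts of calls do not set them apart. Of 18 UVR8 pathway genes 0 passed. Their median difference was 0.30 with all libraries and -0.23 without WT dark replicate 1, so the sign of that median rests on this library. Of 17 flavonoid and phenylpropanoid genes 1 was higher, 4CL3 (AT1G65060), a ligase at the entry of flavonoid synthesis, with 0.753, 0.757 and 0.619 CPM in WT dark, 2.19, 1.13 and 1.04 CPM in WT after UV-B, 0.214, 0.214 and 0.118 CPM in xpf-3 dark, and 2.84, 2.34 and 2.86 CPM in xpf-3 after UV-B. Its xpf-3 libraries lay below WT in the dark and above WT after UV-B (difference 2.74 ± 0.66, adjusted p = 0.0174, and 0.0671 without WT dark replicate 1). The median of the list was 0.06 and lay between -0.18 and 0.27 in the leave-outs. None of 23 heat shock and protein folding genes passed (median -0.11, or -0.22 with groups at 0 set to 3 counts).

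Of 23 genes of the mitochondrial retrograde response, which signals a failing respiratory chain to the nucleus, 0 were higher and 2 lower, although the list rose strongly in both genotypes, by a median of 4.40 in WT and 4.99 in xpf-3. The median difference was -0.04, or -0.41 with groups at 0 set to 3 counts. NAC017 (AT1G34190), the membrane-bound factor at the head of the pathway, had 65.5, 77.3 and 86 CPM in WT dark, 70.6, 84.0 and 82.0 CPM in WT after UV-B, 89.8, 88.3 and 92.8 CPM in xpf-3 dark, and 54.7, 59.9 and 58.6 CPM in xpf-3 after UV-B. It fell in xpf-3, and its change in WT did not pass (difference -0.69 ± 0.14, adjusted p = 0.00955, and 0.0512 without WT UV-B replicate 2). NAC053 (AT3G10500), a factor of the proteasome stress response, rose by 2.33 ± 0.17 in WT and 1.34 ± 0.17 in xpf-3 (difference -0.99 ± 0.24, adjusted p = 0.0181, and 0.0738 without WT dark replicate 1). AOX1A (AT3G22370), the alternative oxidase of mitochondria and a known target of NAC017, was chosen for its role after the values were seen and rose by 3.62 ± 0.20 and 4.01 ± 0.21 (difference 0.39, 95% interval -0.17 to 0.95). Of 23 glutathione transferases 1 was higher, GSTU20 (AT1G78370, 1.65 ± 0.48, adjusted p = 0.0363, and 0.196 without WT dark replicate 1), and 0 were lower (median 0.08). Transferases of 1 cluster can share reads.

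Genes called lower were longer than genes called higher. The median span of the RefSeq gene was 2806 bases for lower, 2232 bases for higher and 2386 bases for all tested genes. With 19720 genes of known length put into 10 groups by length, the share called lower went from 2.12% in the shortest to 5.73% in the longest group, and the share called higher was 4.50% in the shortest, 6.66% in the fourth and 2.74% in the longest. The median difference was 0.07 in the second and -0.13 in the longest group. Among genes with a mean log2 CPM above 6, it went from 0.20 in the shortest to -0.22 in the longest group, and the longest group stayed below 0 in each leave-out (-0.27 to -0.11). Among genes with a mean log2 CPM up to 2, the direction was the opposite, from 0.02 to 0.27. The fall with length was thus not shared by genes of low level, and length moved with level, since longer genes had higher counts (median log2 CPM 1.44 in the shortest and 4.93 in the longest group).

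**Figure D5:**
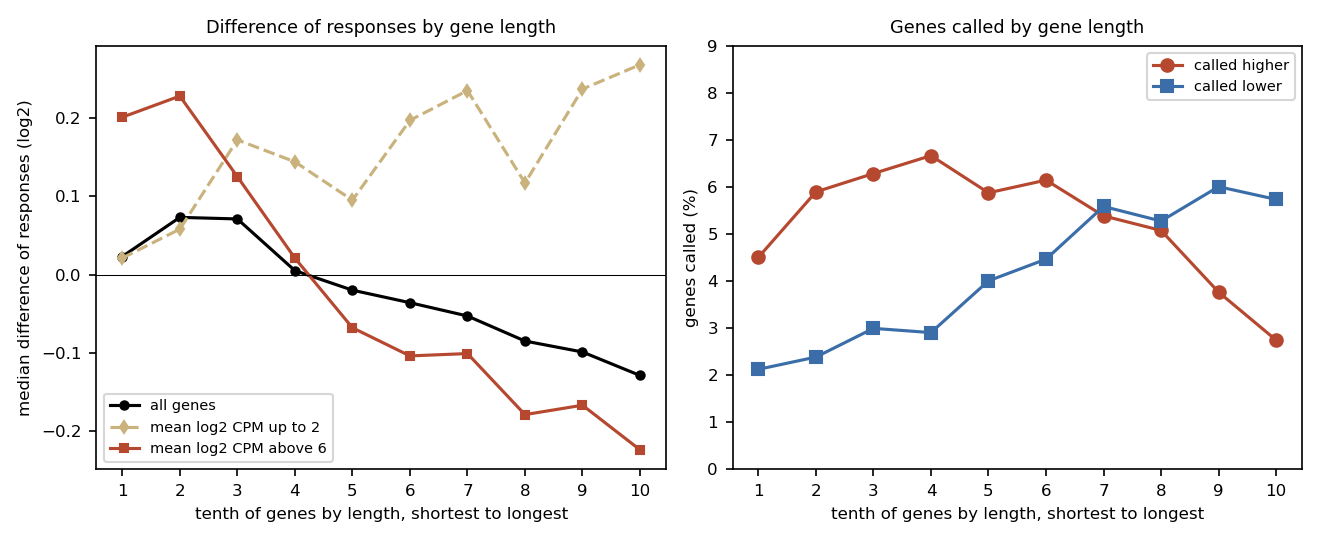
Left, median difference of responses (log2, y axis) in 10 groups of genes from shortest to longest (x axis), for all genes and for genes of low and high mean level; right, percentage of genes called higher and lower in the same groups. In highly expressed genes the median went from 0.20 in the shortest to -0.22 in the longest group, and in genes of low level from 0.02 to 0.27.

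By library, the result depended on which short genes were taken. Against the mean of the WT dark libraries, the second group of lengths exceeded the longest group in median log2 level by 0.08, 0.17 and 0.33 in the WT UV-B libraries and by 0.36, 0.57 and 0.54 in the xpf-3 UV-B libraries. In the dark it differed by 0.10, -0.03 and -0.08 in WT and by 0.02, 0.07 and 0.14 in xpf-3. By this measure the UV-B libraries of xpf-3 lay above those of WT. With the shortest group in place of the second the genotypes overlapped after UV-B, since WT replicate 3 had 0.26 in the shortest and -0.12 in the longest group, and xpf-3 replicate 1 had 0.17 and -0.07.

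To set the high dose beside the low one without the dark libraries, the genotype difference after 30000 µmol m-2 was compared with that after 3000 µmol m-2, a comparison added with the other results known. It uses the same WT and xpf-3 UV-B libraries as the difference of responses, so its values stand beside those above and are not independent of them. Higher and lower mean here that xpf-3 minus WT was higher or lower after 30000 than after 3000 µmol m-2. Of 19794 genes 3203 (16.2%) passed, 1541 (7.79%) higher and 1662 (8.40%) lower. Leaving out any library gave 2260 to 3561 calls, and WT dark replicate 1, which has no part in the contrast, changed the count to 3561.

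In this dose comparison, several lists had many genes whose genotype difference was lower at the high than at the low dose. Such a gene need not lie below WT at the high dose. The difference of responses had a median of -0.04 in both the retrograde and the recombination list, -0.26 for WRKY factors and -0.76 for cysteine-rich kinases. Of 23 retrograde genes 0 were higher and 16 lower (median -1.42), of 12 cysteine-rich kinases 0 and 10 (median -2.77), of 22 WRKY factors 1 and 12 (median -1.42) and of 25 recombination genes 0 and 9 (median -0.33). WAKL2 (-4.14, adjusted p = 6.32e-07), AT2G39980 (-2.62, adjusted p = 8.09e-05), STA1 (-1.14, adjusted p = 0.000618), NPR1 (-0.97, adjusted p = 0.000432) and PEPR1 (-0.94, adjusted p = 0.000274) were lower. Xyloglucan enzymes (10 higher and 1 lower of 19, median 1.28) and cellulose synthesis genes (7 higher and 0 lower of 11, median 0.80) went the other way. The medians of their difference of responses were -0.38 and -0.37.

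Of the 1009 plastid genes 50 were higher and 55 lower (median 0.18), and of the 24 mitosis genes 0 were higher and 1 lower, CYCB1;1 (-0.81, adjusted p = 0.0377), with a median of 0.17. RBCS2B (1.29, adjusted p = 0.272), YAB3 (0.59, adjusted p = 0.63) and SAUR27 (-1.24, adjusted p = 0.143) did not pass. Of 40 auxin genes 5 were higher and 2 lower, beside 7.79% and 8.40% of all genes. BGLU25 (1.5, adjusted p = 0.000432) and ENODL2 (0.72, adjusted p = 0.0206) were higher.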

How the data were processed

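RNA of etiolated hypocotyls was sequenced from stranded TruSeq libraries, 3 for each of 9 groups of genotype and dose. The authors deposited raw read counts per locus, with descriptions of the genes in a table of their normalized values, of which only the descriptions were used. Per the submitters' processing notes, FastQC, Trimmomatic, HISAT2 and DESeq2 were used. No read counter, genome build or tool version is given in the sources used here. Per the authors' deposited note, WT and xpf-3 were sequenced in an earlier run than uvr8-6. The uvr8-6 libraries enter here through the filter on low counts, the scaling of library sizes and the shared estimate of the spread.

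The counts of all 27 libraries were fitted in edgeR 4.0.16 with limma 3.58.1 (R 4.3.3) as 9 groups with 18 residual degrees of freedom, after filterByExpr and TMM scaling, with glmQLFit (robust) and glmQLFTest. P-values were two-sided, adjusted by Benjamini and Hochberg over the 19794 genes tested, with a threshold of 0.05. CPM were computed on TMM-scaled library sizes, and mean log2 CPM used a prior count of 2. The members, the gene lists and the tests were chosen with earlier results of these data known. Named genes were UVH1, the 10 largest differences in each direction among genes whose response passed in either genotype and whose mean log2 CPM was no less than 1, the 6 of smallest p in each direction, and up to 4 passing genes of each of 31 lists. Other genes are named as chosen after their values were seen. Alternatives were DESeq2 1.42.0 as a test and for size factors, no low-count filter, fewer libraries in the fit, a replicate block, and leaving out each library.

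Total counts per library, between 4508097 and 11984665 in the 12 compared, limit precision for weakly expressed genes. Counting intervals and floors of 3 counts cover counting error only. In simulated counts for this comparison, 200 genes among 19678 were changed. Of these, 51% of 2-fold and 82% of 4-fold changes were recovered, with 21 false calls. The share of false calls among the simulated calls thus lay above the threshold of 0.05. The simulation did not measure how calls depend on single libraries. Recovery and false calls in the real libraries were not tested. Symbols, gene spans and the 250 bases before each start were taken from RefSeq on TAIR10.1 by locus ID, with 32547 of 32832 loci matched.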

Additional observations from a re-analysis of the deposited data

Results flagged for a closer look

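The test of the difference between the 2 genotypes' responses itself set 1849 genes apart, and the genes named from it are given here with that difference on the log2 scale (xpf-3 minus WT); most of them were not called without WT dark replicate 1. Among the largest differences, AT5G16030 had 7.08, RBCS1B 4.87, YAB3 4.11, GER3 4.06, TCP2 3.92, RBCS2B 3.89, BCA2 3.81, AT4G36850 3.80, OEP6 3.57 and AT4G21445 3.51. In the other direction PER4 had -2.96, ATMYBL2 -2.57, SAUR62 -2.49, SAUR27 -2.41, BAP1 -2.35, AT2G04680 -2.33, AT2G39980 -2.26, FUT4 -2.20, IAA6 -2.20 and WAKL2 -2.18.

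The higher genes of smallest p were ENODL2 with 1.66, BGLU25 with 1.86, AT4G30650 with 2.16, PNSB4 with 2.79, EMB3147 with 0.66 and iqd8 with 2.91. The lower ones were STA1 with -1.76, SD25 with -1.59, AT4G24200 with -1.11, PEPR1 with -1.08, AT4G02940 with -1.16 and SOV with -1.12.

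Of the cell cycle lists, SIM had -0.65, CDC6 0.70, CYCB2;4 1.78, CDKB2;1 1.38, CYCB1;3 1.29 and CYCB2;3 1.47. Of the plastid, light and stomatal lists, RBCS3B had 2.15, CHLI1 1.36, PORA 2.94, PORB 1.31, PHYB -0.78, PHYA -0.53, TMM 2.75 and SPCH 3.87. Of the stress and immune lists, 4CL3 had 2.74, NAC017 -0.69, NAC053 -0.99, GSTU20 1.65, NPR1 -0.89, WRKY11 -0.91, PEN2 -0.71, PEN3 -0.93, CRK10 -1.19, CRK19 -0.86, NUDT7 -0.96, RBOHF -0.78, RBOHD -0.73 and NRPB1 -1.08. Of the growth and hormone lists, XTH9 had 2.09, EXPA1 -1.49, IAA2 -0.96, IAA5 -1.14, SAUR24 -1.81, ARF7 -0.74, BRI1 -0.84, PRE6 -1.50, BEE1 -1.03 and EBF2 -0.63.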

How the results depend on the processing

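The 1849 calls became 732 (396 higher, 336 lower) when only the 12 compared libraries were fitted, 692 of them shared with the 1849. Leaving out each library gave 177 to 2316 calls. The split of higher and lower calls changed sides in several of these fits, with 62 and 115 without WT dark replicate 1, 255 and 459 without xpf-3 dark replicate 3, and 679 and 1039 with the 18 WT and xpf-3 libraries. It was 1021 and 945 with DESeq2 size factors, 1237 and 1193 with the DESeq2 test, and 750 and 637 with no low-count filter. The causes were not tested, except that the fit of 12 libraries has fewer samples by construction. No called gene had the opposite sign in any of these settings.

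Same-numbered libraries correlated between -0.0775 and 0.273 in their deviations, and differently numbered ones between -0.215 and 0.166. For xpf-3 dark with xpf-3 UV-B the same-numbered values were 0.0363, 0.162 and 0.0801. For WT UV-B with xpf-3 UV-B they were 0.001, -0.0775 and 0.0207. These values do not settle whether replicate numbers pair the libraries, and the main fit had no replicate block. A replicate block gave 2316 calls (1256 higher, 1060 lower) and changed no call of a named gene. Of the named genes, 21 lost their call in the fit of 12 libraries, 9 with 18 libraries, 11 with no low-count filter, 1 under the DESeq2 test and none with DESeq2 size factors, and leaving out a library lost 2 to 51.

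The calls of the WT response (11538 to 13166), of the xpf-3 response (13663 to 14787) and of the dose comparison (2260 to 3561) stayed within 1.5 times their main counts in all settings run, the dose comparison having no value in the fit of 12 libraries. Depth limits genes of low level most, and xpf-3 UV-B replicate 1, with 4508097 counts, was the shallowest library.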
